A study of Mus musculus with 4 samples.

Results

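Semaphorins are guidance proteins that cells secrete or display on their surface, plexins are the receptors that read them, and neuropilins are co-receptors that join plexins on the cell surface. Every array probe that is not a control and whose gene name begins with Sema or Plxn, or is Nrp1 or Nrp2, was taken. This gave 59 probes for 31 genes (20 semaphorins, 9 plexins and 2 neuropilins) out of 41174 probes for 27827 gene names on the array. The 4 samples were mouse embryonic fibroblast (MEF) lines, cells grown out of embryonic tissue, each profiled on 1 single-colour Agilent array. Ip6k1 encodes inositol hexakisphosphate kinase 1, an enzyme that makes inositol pyrophosphates, and the study used the arrays to ask which transcripts differ when it is lacking. The 2 Ip6k1+/+ lines (the controls) and the 2 Ip6k1-/- lines (the knockout lines) came from embryonic day 14 littermates of a single mating between heterozygous mice. All 4 lines had been immortalised with SV40 large T antigen, so the controls carried it too. The cells were passaged 2 times after thawing and were in exponential growth, and trypsin was used to lift them before RNA was taken. Each line stands for 1 embryo, so that p-values rest on 2 lines per genotype. The limma p-values also draw on the spread of other probes of like signal.

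Semaphorins fall into classes by their structure. Class 3 members are secreted and mostly act through complexes of a neuropilin with a plexin of the A family, with Sema3e as the exception that binds plexin D1 directly. Classes 4 to 6 span the membrane, and the single class 7 member, Sema7a, is held there by a lipid anchor and also binds integrins. Inside the cell plexins switch off Ras-family GTPases, and plexins of the B family also recruit activators of RhoA, which changes adhesion to the matrix and the cytoskeleton. Mesenchymal cells such as fibroblasts are a known source of class 3 semaphorins for growing axons and vessels.

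Values are log2 of the background-corrected signal minus the 75th percentile of the same array, so that 0 marks that percentile, and differences are Ip6k1-/- minus Ip6k1+/+. In each group the lines are given in the order of their replicate numbers, 1 and then 2. A probe was tested with limma if the scanner software called it well above background in both lines of at least 1 genotype, which held for 37 of the 59 probes and 23 of the 31 genes. Fold calls needed a mean difference of at least 1 on the log2 scale (2-fold) with each Ip6k1-/- line at least 0.9 away from the Ip6k1+/+ mean. Between 52.2% and 55.8% of spots were well above background on each array, and the 75th percentile of the signal lay between 610.4 and 747.3 units. No spot of a semaphorin, plexin or neuropilin probe was saturated or marked as an outlier. Of the fibroblast markers, 7 of 8 were well above background in all 4 lines (Fap was not), and collagen and vimentin probes were among those saturated. In contrast, 1 of 6 endothelial markers (Kdr) was well above background in all 4 lines, while Pecam1, Cdh5, Tek, Emcn and Esam were not in any line. In all 4 lines 1 of 6 neuronal markers (Tubb3), 1 of 5 glial and neural crest markers (S100b), 1 of 4 epithelial markers (Krt18), 1 of 5 haematopoietic markers (Cd68) and 0 of 4 skeletal muscle markers were well above background.

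The targeted gene followed the labels. Ip6k1 probe A_51_P213766 had log2 signals of 0.35 and 0.39 in the controls and failed the detection call in both knockout lines. This put Ip6k1+/+ MEFs at least 34.0-fold higher (limma adjusted p = 0.0356), where the limit sets the Ip6k1+/+ mean against the dimmest signal called well above background on each Ip6k1-/- array. A_52_P413035 gave a limit of at least 32.7-fold. The remaining probe, A_51_P103718, stayed above background in the Ip6k1-/- lines, at -1.98 and -1.23 beside 2.46 and 2.61 in the controls. Its difference was -4.13 (SE 0.33, limma unadjusted p = 8.5e-05, adjusted p = 0.368). With 2 lines per genotype, limma thus did not call this probe of the targeted gene, so a probe that is not called can still differ. Which exons the deletion removes is not given in the sources used here.

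Across the 23 tested genes, most differences between the genotypes were smaller than the spread between lines of 1 genotype. No gene was higher past the 2-fold rule, beside 1.51% of all tested gene names, and only Sema5a was lower past it, beside 2.44%. None of the 37 probes was called by limma at an adjusted p of 0.05 or less and a fold of at least 2 (lowest adjusted p = 0.993), which called 0.0139% of all 21573 tested probes. At an unadjusted limma p below 0.05 there were 3 probes, of Sema3e (2 probes) and Plxnb2, where 3.34% of all tested probes lay. With each gene taken at its tested probe with the highest mean signal, 15 genes were lower and 8 higher in Ip6k1-/- MEFs, with a median difference of -0.17. The median over all tested gene names was 0.04, and 45.0% of them were lower. As these were bulk samples, fewer cells of a type and less RNA per cell cannot be told apart.

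The knockout lines were both dimmer than either control for 4 genes, Sema3e, Sema5a, Sema6c and Plxnb2, beside 13.2% of all tested gene names. No gene had both Ip6k1-/- lines above both Ip6k1+/+ lines, beside 18.1%. The larger gap between the 2 lines of a genotype exceeded the genotype difference for 19 of the 23 genes (82.6%), close to the 80.8% over all tested gene names. The median gap of these genes was 0.77 between the Ip6k1+/+ lines and 0.57 between the Ip6k1-/- lines, beside 0.36 and 0.31 over all tested gene names. Their median difference between genotypes, regardless of sign, was 0.44 beside 0.23.

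**Figure D1:**
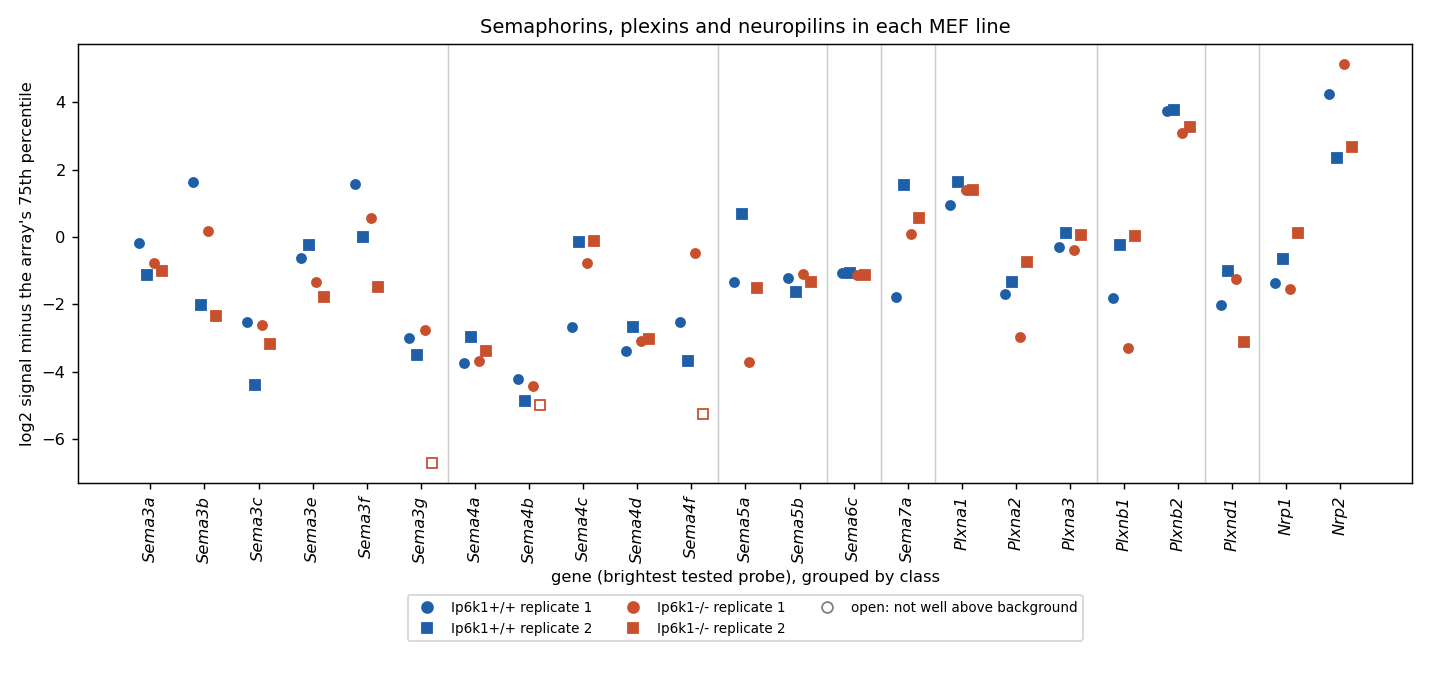
Log2 signal minus the 75th percentile of the array (y axis) for the 23 tested genes (x axis, at the tested probe with the highest mean signal), with 1 point per MEF line in blue for Ip6k1+/+ and orange for Ip6k1-/-, circles for replicate 1, squares for replicate 2 and open symbols where the probe was not well above background. Points of the 2 genotypes interleave for most genes, while for Sema3e, Sema5a and Plxnb2 both orange points lie under both blue points.

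The probes behind the lower signals, and those of Sema5b, which differed in detection, are given here by position. Positions are in build mm9, as named in the array file headers, with the first 30 of the 60 bases of each. Whether the place of a probe had a part in its readout was not tested. First come the probes of Sema5a, Sema3e and Plxnb2 that were detected in at least 1 line, of which Sema5a A_52_P465022, detected in 1 line, was not tested:
Sema5a (A_52_P409076, chr15:32625859-32625918, + strand): aatgaagtcataaaatggtcctgcattttg
Sema5a (A_52_P465022, chr15:32619122-32619181, + strand): ctattccaacgcctactttacagatctcaa
Sema3e (A_51_P483438, chr5:14254023-14254082, + strand): atgatttttatgaggcttttcagttcggta
Sema3e (A_52_P439407, chr5:14256431-14256490, + strand): tctgactagatactggagtgtctttgtctc
Sema3e (A_52_P91152, chr5:14232200-14233666, + strand): tcttatttattgggacagacacaggaattg
Plxnb2 (A_52_P678942, chr15:88986248-88986307, - strand): taactgtctgccagacggaaggagaagaaa
Plxnb2 (A_52_P311068, chr15:88997045-88997104, - strand): cgggggcctgaatctgacagcagtgacagt

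The class 3 semaphorins had 7 genes on the array, of which 6 were tested. In this class 5 genes were lower and 1 higher in Ip6k1-/- MEFs, with a median difference of -1.01, and none passed the 2-fold rule. Sema3e, a repellent for vessels and axons that signals through plexin D1, read lower in Ip6k1-/- MEFs on each of its 3 detected probes. Its probe A_51_P483438 read -0.61 and -0.25 in the controls, the Ip6k1+/+ lines, and -1.33 and -1.78 in the knockout lines. Both knockout lines lay under both controls, with a difference of -1.12 (2.18-fold, limma SE 0.32, unadjusted p = 0.018, adjusted p = 0.993). It missed the 2-fold rule by the first Ip6k1-/- line, which was -0.899 from the Ip6k1+/+ mean, where the limit is 0.9. The probe farther towards the 3' end of the transcript, A_52_P439407, read -1.39 and -1.49 beside -2.34 and -2.89. Again the groups did not overlap, and the difference was -1.17 (2.25-fold, SE 0.34, unadjusted p = 0.019, adjusted p = 0.993), with the first Ip6k1-/- line at -0.897 from the control mean. A_52_P91152, whose 60 bases span 1467 bases of the genome, was well above background at -4.87 and -4.11 in the controls and in neither knockout line, which made Ip6k1+/+ MEFs at least 1.17-fold higher. The remaining Sema3e probe, A_52_P644320, was undetected in all 4 lines.

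**Figure D2:**
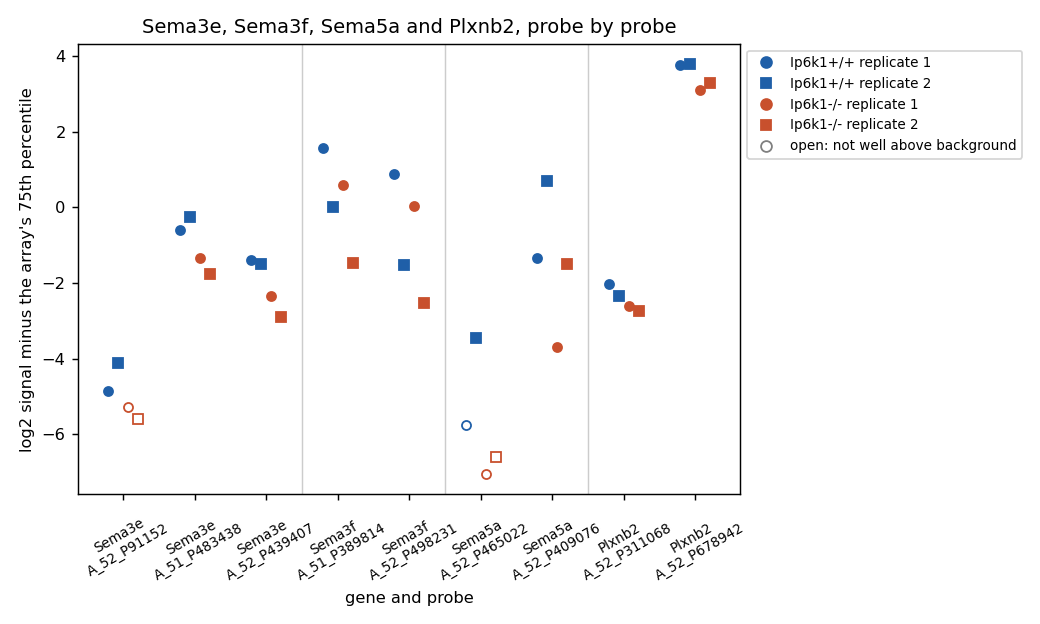
Log2 signal minus the 75th percentile of the array (y axis) in each MEF line for every probe of Sema3e, Sema3f, Sema5a and Plxnb2 that was well above background in at least 1 line (x axis), with colours and symbols for genotype and replicate, open where not well above background. All 3 Sema3e probes and both Plxnb2 probes place the Ip6k1-/- lines below the Ip6k1+/+ lines, while the Sema3f lines of the 2 genotypes overlap on both probes.

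Sema3f and Sema3b, secreted ligands of neuropilin and plexin complexes, lie near Ip6k1 on chromosome 9, at 0.363 and 0.447 Mb from its nearest probe. Sema3f probe A_51_P389814 read 1.56 and -0.0031 in the controls and 0.58 and -1.48 in the knockout lines, a difference of -1.23 (2.34-fold, SE 0.87). Replicate 1 was the higher line in both genotypes, and the groups overlapped. A_52_P498231 gave the same order at 0.87, -1.52, 0.04 and -2.53, with a difference of -0.92 (SE 1.17). For Sema3b the log2 signals were 1.64 and -2.02 in the controls and 0.17 and -2.34 in the knockout lines. The gap of 3.65 between the 2 control lines was larger than the genotype difference of -0.89 (SE 1.46). Whether the position beside Ip6k1 had a part in these values was not tested.

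Sema3a, the founding collapse factor for growth cones, had overlapping groups on both tested probes. Probe A_51_P163146 read -0.18 and -1.13 beside -0.78 and -1.002, a difference of -0.24 (SE 0.40), and A_52_P527748 read -1.17 and -2.52 beside -2.35 and -2.46, a difference of -0.56 (SE 0.53). The knockout lines lay between the controls each time. Sema3c, known for its part in outflow tract development, was the only class 3 gene with a positive difference. Its values of -2.52 and -4.39 in the controls enclosed the -2.60 and -3.16 of the knockout lines, with a difference of 0.57 (SE 0.71). Sema3g, best known from endothelium, was at -3.01 and -3.50 in the controls and -2.75 in the first knockout line, and undetected in the second, so that its difference of -1.48 (SE 1.34) rests on a single dim line. Sema3d was well above background in replicate 1 of each genotype and in neither replicate 2, and was not tested.

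Class 5 semaphorins carry thrombospondin repeats outside the cell and guide axons by attraction or repulsion. Sema5a showed the largest difference among the tested semaphorins, plexins and neuropilins. On A_52_P409076 its log2 signal was -1.34 and 0.69 in the controls (mean -0.32 ± 1.44, SD, n = 2 lines) and -3.71 and -1.51 in the knockout lines (mean -2.61 ± 1.55, SD, n = 2 lines). Both knockout lines were below both controls, although the second knockout line was only a little below the first control. The difference was -2.28 (4.87-fold, limma SE 1.01, unadjusted p = 0.076, adjusted p = 0.993), beside gaps of 2.03 and 2.20 between the lines of each genotype. On its other probe, A_52_P465022, Sema5a was well above background only in the second Ip6k1+/+ line, at -3.44, which was also the brightest line of the first probe. Without the second Ip6k1+/+ line, Sema5a no longer passed the 2-fold rule, at -1.27, since the second Ip6k1-/- line then lay close to the remaining control. Sema5a kept its place past the rule with any of the other lines left out, at -3.38 to -1.18.

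Sema5b, the other member of the class, did not share this pattern. Its probes illustrate how detection can depend on the probe, since 1 of 3 was well above background in all lines and the others in none:
Sema5b (A_52_P127115, chr16:35662805-35662864, + strand): actggtgtgtcctgcttcctggtttctggg
Sema5b (A_51_P382310, chr16:35663626-35663685, + strand): ctgagctgtggacctattgggtatgtgagg
Sema5b (A_52_P385824, chr16:35664275-35664334, + strand): ctgctacagcaacaaaaaggatgttaagct

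The detected probe, A_52_P127115, read -1.21 and -1.63 in the controls and -1.09 and -1.35 in the knockout lines, a difference of 0.20 (SE 0.31) with overlapping groups. The 2 undetected probes lie downstream of it on the same strand.

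Class 4 semaphorins are membrane ligands that act mostly through B-family plexins and, in immune cells, through other receptors. Of 6 genes 5 were tested, with a median difference of -0.03, and none of their groups separated. Sema4c, a ligand of plexin B2, had the largest difference. Probe A_51_P170651 read -2.67 and -0.15 in the controls and -0.76 and -0.12 in the knockout lines, a difference of 0.97 (SE 0.88) with the first control as the lowest line, and A_52_P659904 gave -2.93, -1.29, -1.72 and -1.40, a difference of 0.55 (SE 0.61). Sema4d, the ligand of plexin B1, was at -3.39 and -2.68 beside -3.09 and -3.04 on A_51_P146320, a difference of -0.03 (SE 0.38), and its other probe was undetected. Sema4a, a regulator of T cells and the retina, read -3.74 and -2.96 beside -3.70 and -3.38, a difference of -0.19 (SE 0.41). Each of these pairs of lines overlapped. Sema4b was at -4.21 and -4.89 in the controls and -4.43 in the first knockout line, and not well above background in the second (difference -0.17, SE 0.44). Sema4f varied most, at -2.51 and -3.68 in the controls and -0.46 in the first knockout line, with no signal well above background in the second (difference 0.24, SE 1.63). Sema4g was well above background only in the second Ip6k1+/+ line.

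Among the class 6 semaphorins, transmembrane ligands of A-family plexins, only Sema6c was detected throughout. Its probe A_52_P370692 read -1.07 in both controls and -1.11 and -1.12 in the knockout lines. The groups did not overlap, but the difference was only -0.05 (SE 0.26), and the second probe differed by 0.01 with overlapping groups. Sema6b was well above background in replicate 1 of each genotype, Sema6d on 1 of 3 probes in replicate 2 of each genotype, and Sema6a on 1 of 3 probes in the first Ip6k1-/- line. None of these was tested. Sema7a, which binds plexin C1 and integrin beta1, had its lowest value in the first control, at -1.78 beside 1.55 in the second, with 0.09 and 0.57 in the knockout lines. The difference of 0.44 (SE 1.12) was far inside the gap of 3.33 between the controls.

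**Figure D3:**
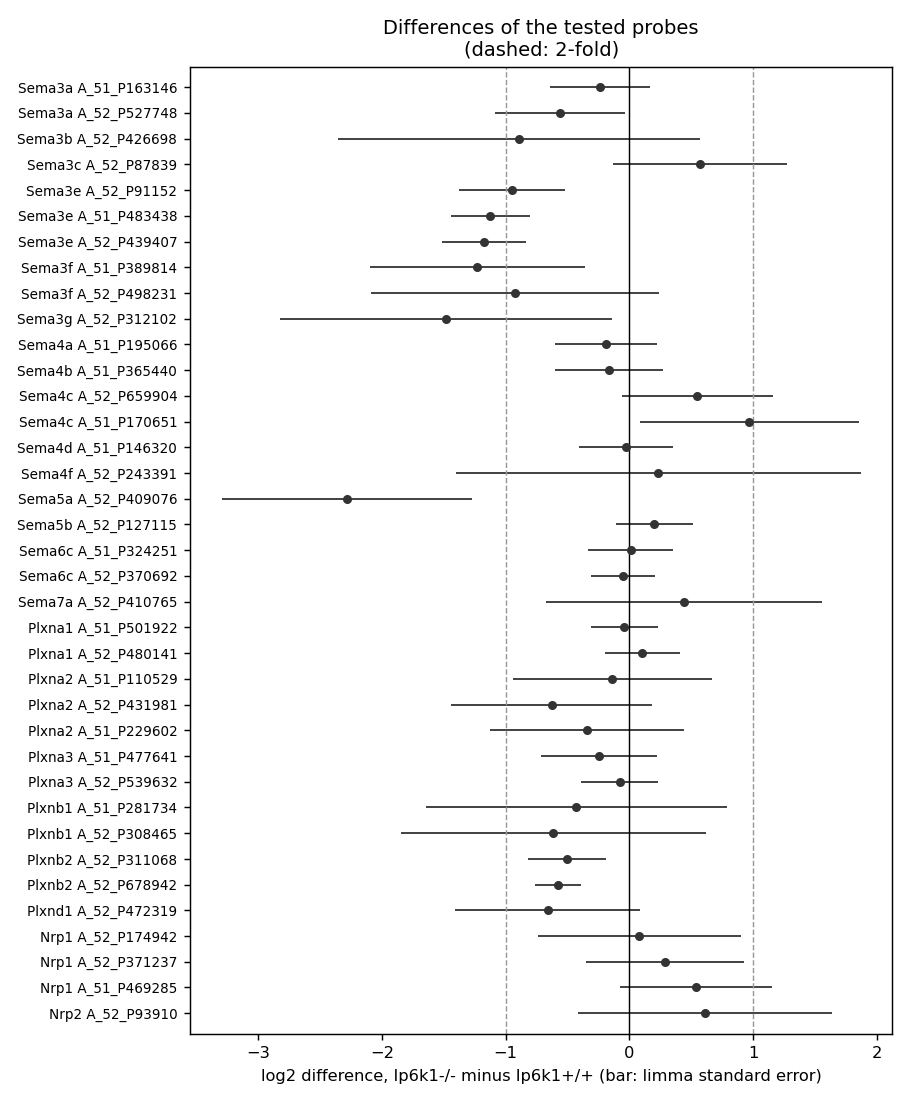
Log2 difference, Ip6k1-/- minus Ip6k1+/+ (x axis), of each of the 37 tested probes (y axis), with limma standard errors as bars and dashed lines at a 2-fold difference. The Sema5a probe lies farthest out at -2.28. The Sema3e and Plxnb2 probes have short bars clear of 0, and some longer bars, such as those of Sema3g and Sema3f A_51_P389814, are clear of it too. A bar clear of 0 marks no call, as the lowest limma adjusted p was 0.993.

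Of the 9 plexins, 6 were tested, with 5 lower, 1 higher and a median difference of -0.46. Plxnb2, the receptor of Sema4c and Sema4g with a part in adhesion and in brain development, varied little between lines. Probe A_52_P678942 read 3.76 and 3.77 in the controls (mean 3.76 ± 0.011, SD, n = 2 lines) and 3.09 and 3.28 in the knockout lines (mean 3.19 ± 0.14, SD, n = 2 lines). Both knockout lines were below both controls, and the difference was -0.58 (1.49-fold, limma SE 0.18, unadjusted p = 0.028, adjusted p = 0.993). The probe nearer the 5' end, A_52_P311068, read -2.02 and -2.35 beside -2.62 and -2.75, a difference of -0.50 (SE 0.31) with no overlap either. Neither probe reached 2-fold. Plxnb1, the receptor of Sema4d, behaved differently, with the knockout lines at both extremes. Its 2 probes read -1.80, -0.24, -3.31 and 0.04 on A_52_P308465 and -1.90, -0.41, -3.25 and 0.09 on A_51_P281734, with differences of -0.61 (SE 1.23) and -0.43 (SE 1.22). It lies 1.07 Mb from Ip6k1. Plxnb3, a receptor of Sema5a, was the only one of the 31 genes that was undetected in all 4 lines.

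Plexins of the A family are the signalling partners of neuropilins for class 3 ligands and bind class 6 ligands directly. Plxna1 was steady, at 0.95 and 1.64 in the controls and 1.39 and 1.41 in the knockout lines on A_52_P480141 (difference 0.11, SE 0.30), and -0.04 on its other probe. Plxna3 read -0.29, 0.13, -0.39 and 0.07 on A_52_P539632 (difference -0.08, SE 0.31) and differed by -0.25 (SE 0.47) on A_51_P477641. In Plxna2 all 3 probes ordered the lines alike. On A_51_P229602 the controls were at -1.68 and -1.34, the first knockout line at -2.97 and the second at -0.73, and the 3 differences ran from -0.63 to -0.14 with standard errors of 0.79 to 0.81. The knockout lines thus lay on either side of the controls, so that the mean difference describes neither. Plxna4 was well above background on 2 of 3 probes and only in the second Ip6k1+/+ line.

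Plxnd1, the receptor of Sema3e, was at -2.02 and -1.002 in the controls and -1.23 and -3.11 in the knockout lines, a difference of -0.66 (SE 0.75). Here the groups overlapped, unlike those of its ligand. Plxnc1, the receptor of Sema7a, was well above background on 1 of 2 probes in replicate 1 of each genotype and was not tested.

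**Figure D4:**
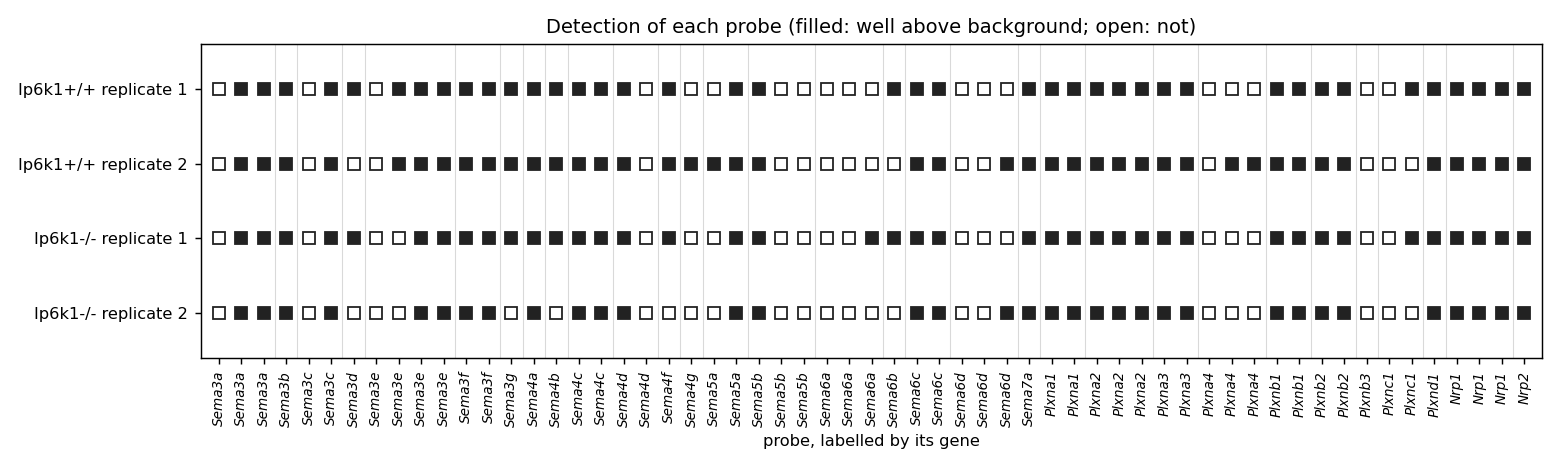
Detection of each of the 59 probes (x axis, labelled by gene) in each of the 4 MEF lines (y axis), filled where the scanner software called the probe well above background. Of the 31 genes, 20 had a probe detected in all 4 lines, 10 in 1 to 3 lines and Plxnb3 in none, and several genes hold both detected and undetected probes.

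The neuropilins also bind VEGF ligands and so serve 2 families of signals. Nrp1 was higher in the second Ip6k1-/- line than in any other line on all 3 probes. Its values on A_52_P371237 were -1.36 and -0.65 in the controls and -1.55 and 0.11 in the knockout lines, a difference of 0.29 (SE 0.64). A_51_P469285 read -2.04, -1.57, -2.08 and -0.45 (difference 0.54, SE 0.61), and A_52_P174942 read -1.91, -1.72, -2.92 and -0.55 (difference 0.08, SE 0.82). The first knockout line was the lowest on each of the 3 probes, so the knockout lines enclosed the controls. Nrp2, the co-receptor favoured by Sema3f, read 4.24 and 2.35 in the controls and 5.14 and 2.67 in the knockout lines on A_52_P93910. Replicate 1 was the brighter line in both genotypes, and the difference of 0.61 (SE 1.03) was smaller than the gaps of 1.89 and 2.47 between lines. A further probe that the files name by a neuropilin-2 accession, A_51_P473024, falls outside the gene name rule and was undetected throughout.

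**Figure D5:**
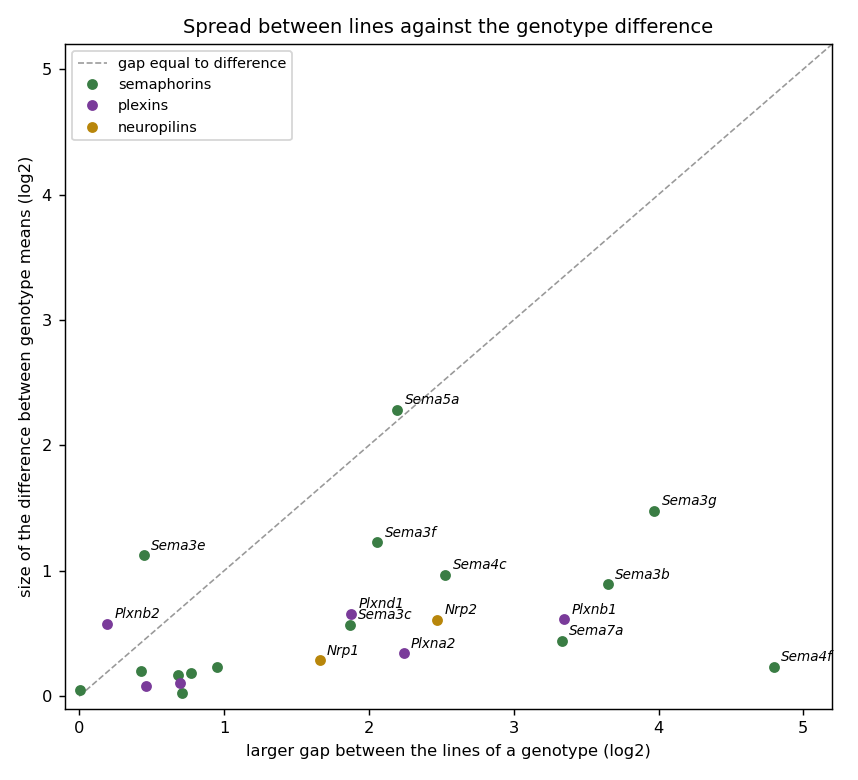
Size of the difference between the genotype means (y axis, log2) against the larger of the 2 gaps between the lines of a genotype (x axis, log2) for the 23 tested genes at the probe with the highest mean signal, coloured by family, with a dashed line where both are equal. Only Sema3e, Sema5a, Sema6c and Plxnb2 lie above the line, and the remaining 19 lie below it.

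Genes that act with semaphorins, plexins and neuropilins were described from a fixed list of 65 names, of which 63 were on the array and 53 were tested. The names not on the array, Vegfd and Arhgap35, are other symbols of the listed Figf and Grlf1, which were both tested. Of the 53 tested genes, 25 were higher and 28 lower, with a median difference of -0.01, and limma called none of their 95 tested probes. An unadjusted limma p below 0.05 was found for 2 of these probes, beside 3.34% of all tested probes. Among the 53 genes 1 was higher past the 2-fold rule, beside 1.51% of all tested gene names, and 2 were lower, beside 2.44%. The gene counted as higher was Ptk2, the focal adhesion kinase, on its dim probe A_52_P58585 alone, which was not well above background in the first control. This probe read -7.25 and -3.10 in the controls and -3.81 and -3.605 in the knockout lines. Both knockout lines thus lay below the second control, and the count as higher rests on the undetected value of the first. The other Ptk2 probes, A_51_P216219 and A_52_P359381, differed by -0.30 and -0.14. Lower were Figf, the gene of VEGF-D, and Itga1, the collagen-binding integrin alpha1. Figf read 2.54 and 1.86 in the controls and 1.27 and 1.07 in the knockout lines, so that the groups did not overlap (difference -1.02, SE 0.30, limma unadjusted p = 0.021, adjusted p = 0.993). Itga1 probe A_51_P268944 was well above background only in the controls, at -2.63 and -4.93, and their mean was brighter by at least 1.91-fold. The knockout lines read -4.81 and -6.97, so the groups overlapped. This probe passed the fold rule on knockout values that lie under background, and it did not with dim values set to a floor. Itga1 probe A_52_P459929, detected in 3 lines, read -1.33, -3.72, -2.23 and -5.55 (difference -1.37, SE 1.36). Its groups also overlapped, and it did not pass the rule. The remaining Itga1 probe, A_52_P518922, was not tested.

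Among VEGF receptors, Kdr, the partner of Nrp1 in endothelium, read -3.66 and -3.99 in the controls and -2.94 and -1.59 in the knockout lines on A_51_P316553. The groups did not overlap, with a difference of 1.56 (SE 0.55, limma unadjusted p = 0.038, adjusted p = 0.993), but the first knockout line was too close to the controls for the 2-fold rule. Kdr is itself an endothelial marker, and the other 5 of that list were not well above background in any line. The ligand Vegfa differed by -0.68 to -0.34 over its 4 probes, with standard errors of 0.35 to 0.44. Both Rac1 probes (-0.04 and 0.24), both Rhoa probes (0.11 and 0.37) and the tested probes of Met, a receptor that associates with B-family plexins (0.23 and 0.35), differed by less than 2-fold, and none reached an unadjusted limma p of 0.05. Of the 7 tested fibroblast markers 4 were higher and 3 lower, with a median difference of 0.05. Among the higher ones, Col1a1, Col1a2 and Vim were read on probes saturated in most or all lines, which can hide a difference. The unsaturated Col1a1 probes differed by -0.60 and -0.70. Col3a1 differed by -1.25 (limma unadjusted p = 0.044, adjusted p = 0.993) and, on a probe detected in 3 lines, by -1.38, with no overlap on either probe. Pdgfrb alone passed the 2-fold rule, at -1.20, and both Thy1 probes differed the other way, by 1.03 and 0.90, with overlapping groups. Whether the differences of Kdr, Pdgfrb and Col3a1 had a part in the semaphorin and plexin values was not tested.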

How the data were processed

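RNA of 2 Ip6k1+/+ and 2 Ip6k1-/- MEF lines was hybridized to 1 single-colour Agilent array per line, all on 1 slide, so slide could not be used as a block. Spot intensity on a linear scale, background-corrected by Feature Extraction (10.5.1.1 per the file headers), was deposited for each array with the detection flags of that software. The log2 values that the authors deposited as a second table, shifted to the 75th percentile in GeneSpring, equalled those used below up to 1 constant per array (median deviation 0.0025). For this work log2 of the processed intensity was shifted on each array by its 75th percentile over the 43379 non-control spots, spots with an outlier flag (96 to 133 per array) were left out and spots of 1 probe were averaged. Where a probe was not detected in 1 genotype, its signal was set at the lowest one called well above background on that array, only to give a lower limit of the fold. Differences of probes that were not tested were not read in the main settings. Tested probes kept their measured values in lines where they were not well above background, as for Sema3g, Sema4b, Sema4f and Itga1.

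Genotypes were compared over 21573 probes (14335 gene names) in limma 3.58.1 (R 4.3.3) by lmFit and then eBayes, its variance prior following signal. Benjamini-Hochberg adjustment was over all of these probes. The procedure was run on simulated data with independent noise for each array. That simulation leaves out the shared deviations of same-numbered lines described below, so it does not show how the procedure behaves with them. A gene counted as past the fold rule if any tested probe passed. The methods' own threshold was a 2-fold mean difference, and the limit of 0.9 on each line was added here. The genes, the lists of partner genes and cell type markers and the rules were chosen with earlier results of these data known. Every gene was named, with values for each tested semaphorin, plexin and neuropilin. Of the partner genes, those past the fold rule or at an unadjusted p below 0.05 were named, as were Rac1, Rhoa, Vegfa and Met. Gene names are those of the array design, and all 31 symbols were found in a RefSeq table of GRCm38. Probe positions are those of build mm9 in the deposited files, and the exon or untranslated region that each probe lies in was not analysed here. The number of arrays limits the precision. Alternatives were normexp background correction, quantile and median normalization, other filters, a floor on dim values, the deposited log2 values, other fold rules and probe choices, a replicate block, each line left out and other tests.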

Additional observations from a re-analysis of the deposited data

How the results depend on the processing

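No semaphorin, plexin or neuropilin probe was called by limma under any alternative. The median difference and those of 2 Sema3e probes (A_51_P483438 and A_52_P439407), Sema5a A_52_P409076 and Plxnb2 A_52_P678942 kept their direction throughout. The direction of 4 genes that no test had called turned past the 2-fold rule when 1 line was left out: Sema7a to lower without the first Ip6k1+/+ line, Sema4f to lower and Plxnb1 to higher without the first Ip6k1-/- line, and Nrp1 to lower without the second. The number of probes at an unadjusted p below 0.05 ran from 2 to 7 over the settings, with 2 by the methods' t-test, of which 0 also had a 2-fold difference and 0 passed after Benjamini-Hochberg adjustment. The median difference of -0.17 stayed between -0.29 and -0.05. Genes lower past the 2-fold rule numbered 3 without the filter on dim probes (Plxna4 and Sema4g joined Sema5a, with Ip6k1-/- values that were not well above background), 2 with the deposited log2 values (Sema3e joined), 4 by the mean difference alone (Sema3e, Sema3f and Sema3g joined) and 3 to 7 with each line left out. Without the second Ip6k1+/+ line these were Sema3a, Sema3b, Sema3e and Sema3f, and without the first Ip6k1-/- line Plxnd1, Sema3b, Sema3e, Sema3f, Sema3g, Sema4f and Sema5a. Genes higher past the rule numbered 1 to 3 with each line left out, beside 0 with all lines. The 3 partner genes past the rule became 1 with normexp, with probes detected on all 4 arrays, with floored dim values, with the brightest probe alone and with the mean over probes, 5 by the mean difference alone and 5 to 10 with each line left out. Shares over all tested gene names are given for the main settings only. The changes in these counts therefore cannot be read as particular to semaphorins, plexins, neuropilins or their partners. A stricter fold rule, asking every knockout line to lie at least 1 away from the control mean, was chosen after seeing the data and again gave Sema5a as the only lower gene. The replicate numbers were the same in both genotypes but nothing in the labels ties the lines together. Deviations of same-numbered lines correlated at 0.48 over all tested probes and 0.60 over those of these genes, and the gaps between replicates 1 and 2 had the same sign in both genotypes for 20 of 23 genes (87.0%, beside 63.1% of all tested gene names). With the number as a replicate block, 0 probes were called and 7 had an unadjusted p below 0.05 (lowest adjusted p = 0.194). The cause of these changes was not tested. Signals near background limit the dim genes, above all Sema3g, Sema4b and Sema4f, each with 1 line not well above background.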
